A study of Danio rerio with 2 samples.

Results

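Cluster 5 of the deposited cell table is a group of cells that carried the early retina genes rx1, six3b, pax6b and fabp11a. Its members were taken as every cell that the authors' table numbers 5, and they came to 345 of the 4735 cells in the table. The cells were dissociated from Tg(mitfa:GFP) zebrafish embryos aged 24 hours after fertilisation, a line in which the promoter of mitfa, the transcription factor of the melanophore (black pigment cell) lineage, drives green fluorescent protein (GFP). They were sorted by flow cytometry into a mitfa:GFP high and a mitfa:GFP low fraction, and each fraction gave 1 droplet single-cell RNA library. All cells thus carried the transgene and had passed a GFP gate, and no wild-type or unsorted cells were set beside them.

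Of the high library, 159 of 2374 cells (6.70%, exact binomial interval 5.72 to 7.78%) were in cluster 5, and of the low library 186 of 2361 cells (7.88%, interval 6.82 to 9.04%). Intervals here and below are at 95% and cover counting error only. With 1 library per fraction there was no replicate spread and no test was possible, so every comparison describes these 2 libraries, and an effect of GFP level cannot be told apart from an effect of the library. The GFP transcript was not analysed here. The clusters were made from the same genes that are described below, so the genes of cluster 5 are a description of it and not a finding about it.

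The vertebrate retina grows from the eye field, a patch of the anterior neural plate specified by homeobox factors such as rx3, six3 and pax6. These cells form the optic cup, whose inner layer becomes the neural retina and whose outer layer becomes the retinal pigment epithelium, the melanin-bearing sheet that serves the photoreceptors. At this stage most neural retina cells are still dividing and few have left the cycle to become neurons. The cup is divided by transcription factors and guidance molecules into nasal and temporal and into dorsal and ventral domains, which later guide retinal axons to their targets.

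The depth of cluster 5 was below that of the other cells in the high library and above it in the low library. The median was 5584 unique molecular identifiers (UMIs, counts of captured transcripts) and 1520 genes per cell in the high library and 6423.5 UMIs and 1725 genes in the low library, against 7004 and 5679 UMIs in all other cells. The summed UMIs of cluster 5 were 964206 in the high and 1205777 in the low library. Of the 2605 high and 2671 low deposited barcodes, 1 occurred in both libraries, and it was not in cluster 5. The 5% of barcodes per library with the highest Scrublet doublet scores included 4 high and 8 low cells of cluster 5.

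Most members held 3 or 4 of the 4 markers. These markers belong to the label of the cluster, so their counts describe it and cannot check its identity. All 4 markers were seen in 50 high and 64 low cells of cluster 5 and 3 of the 4 in 42 and 44. None was seen in 36 high and 36 low cells, and these were shallow. Their median was 1881 and 1979.5 UMIs, against 8400 and 8771.5 UMIs in cells with all 4, and 30 and 35 of the 36 were under 3000 UMIs. A UMI of rx1, an eye field homeobox factor, was seen in 57.2% of high and 57.5% of low cells of cluster 5. In the neural progenitor-like cluster 0, at median depths of 4447 and 4559 UMIs, the share was 0.913% and 1.90%, and in the muscle-like cluster 8, at 10488 and 9634 UMIs, it was 1.45% and 2.38%. The other markers were more widely seen. Six3b had a UMI in 58.5% and 60.2% of cluster 5 cells and 21.1% and 20.4% of cluster 0 cells, and pax6b in 58.5% and 63.4% against 23.6% and 25.9%. Fabp11a was seen in 59.7% and 62.4% of cluster 5 cells and 17.7% and 17.5% of cluster 0 cells. It was also seen in 35.0% and 18.2% of cells of the melanophore-like cluster 6, at deeper medians of 10960 and 10562 UMIs.

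Most eye field factors were higher in cluster 5 than in the other cells. UMIs were summed per library and divided by all UMIs of the same cells to give CPM (UMIs per 1000000), and ratios are log2 of cluster 5 over all other cells of the same library. A gene was called when it was at least 2-fold higher, or lower, in both libraries. Of the 18 genes on an eye field list, 17 had the minimum of 50 UMIs, 14 of them were called higher and none lower, and six7 had no UMI in cluster 5. Over all 12295 genes with that minimum, 405 (3.29%) were called higher and 1869 (15.2%) lower. The list's median ratio was 3.97 in the high and 2.81 in the low library, where the median of all genes was −0.19 and −0.23.

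Rx1 had 307 CPM (interval 273 to 344) in high and 288 CPM (258 to 320) in low cells of cluster 5, against 2.41 and 3.23 CPM in the other cells, log2 ratios of 6.99 and 6.48. Its paralogue rx2 had 24.9 and 28.2 CPM in cluster 5 against 0.18 and 0.29 CPM elsewhere, from 3 and 4 UMIs in all other cells, and rx3, the earliest acting of the family in the fish eye field, had 31.1 and 21.6 CPM against 1.87 and 3.08. These genes were near 0 in most other clusters.

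Six3b, a repressor that holds the anterior neural plate in an eye and forebrain fate, had 443 and 414 CPM in cluster 5 against 33.7 and 49.0 CPM in other cells. Pax6b had 442 and 454 CPM against 28.3 and 58.0 CPM, and pax6a 170 and 185 CPM against 36.9 and 59.6 CPM. In the low library pax6b was highest in cluster 9, a group of 19 cells, at 1469 CPM. Pax6 also serves the endocrine pancreas, and the shared factors of eye and forebrain were thus not limited to cluster 5. The LIM homeobox gene lhx2b at 22.8 and 31.5 CPM and vsx1 at 33.2 and 18.3 CPM were higher in the neuron-like cluster 4, which had 62.7 and 87.7 CPM of lhx2b and 167 and 84.3 CPM of vsx1. Of the list, mab21l1, mab21l2 and six6a, a sparse gene with 8 and 6 UMIs, were not called. Mab21l2, needed for growth of the optic cup, had 91.3 CPM in high and 44.8 CPM in low cells of cluster 5 against 37.3 and 48.1 CPM in the others.

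**Figure D1:**
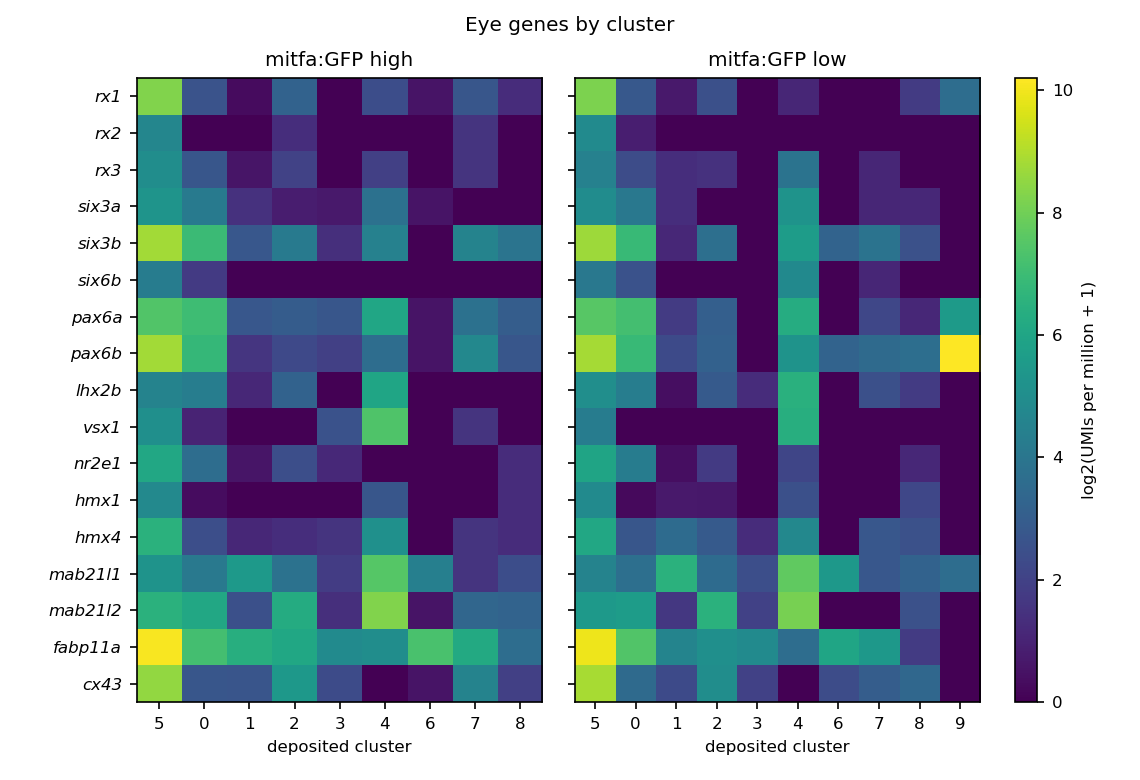
Level of 17 eye genes in each deposited cluster of the mitfa:GFP high (left) and low (right) library, as log2(CPM + 1) of the summed UMIs, with cluster 5 in the first column. Rx1 and rx2 are brightest in the first column, at 307 and 24.9 CPM in the high library, while pax6a, lhx2b, vsx1 and mab21l2 are also seen in clusters 0 or 4, and pax6b in cluster 9 of the low library.

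The 10 genes with the highest ratios (the lower of the 2 libraries) among those with at least 200 UMIs included rx1, cx43, wfdc1, foxd1, fabp11a, myb, hmx4, six3b and nr2e1. Cx43, a gap junction connexin, had 370 CPM in high and 463 CPM in low cells of cluster 5 against 7.72 and 9.99 CPM in the other cells. Fabp11a, a fatty acid binding protein, had 1100 and 993 CPM against 88.0 and 79.1 CPM. Nr2e1 (Tlx), an orphan nuclear receptor of retinal and forebrain progenitors, had 68.5 and 61.4 CPM against 3.50 and 7.49 CPM. Myb, a transcription factor best known from blood and dividing progenitors, had 62.2 and 78.0 CPM against 3.08 and 6.39 CPM. Wfdc1, a secreted protease inhibitor family member, had 67.4 and 57.2 CPM against 1.81 and 2.79 CPM. At the other end, aox5, an enzyme of yellow pigment cells, had 3.11 and 0.83 CPM in cluster 5 against 263 and 60.6 CPM, and the muscle myosin myl1 had 0 and 4.15 CPM against 245 and 274 CPM. CABZ01021592.1, cyt1l and akr1b1.1 completed the 5 lowest, with ratios between −5.78 and −6.49.

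Most of the eye field list was also higher than in cluster 0 alone. Of 17 genes, 11 were called higher and none lower, with medians of 2.45 and 1.84, where 222 of 8318 genes (2.67%) were called higher and 922 (11.1%) lower and the median of all genes was −0.15 and −0.13. The 6 not called higher against cluster 0 included pax6a, with 130 and 142 CPM in cluster 0, and lhx2b, with 18.9 and 18.7 CPM there.

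Several general neural progenitor genes ran the other way. Sox2, the SoxB1 factor of neural stem cells, was not called, with 236 and 197 CPM in cluster 5 against 288 and 266 CPM in cluster 0. Sox3, a close relative, had 57.0 and 41.5 CPM against 430 and 393 CPM, and the glial filament gene gfap 34.2 and 20.7 CPM against 247 and 244 CPM. Of 8 SoxB1 and progenitor genes, 5 were called lower than in cluster 0 (sox3, sox19a, sox19b, nes and gfap) and 1 higher. The higher one was fabp7a, the brain lipid binding protein of radial glia, at 1325 and 1156 CPM in cluster 5 against 508 and 419 CPM in cluster 0.

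Genes of the Notch pathway, by which neighbouring progenitors hold each other back from becoming neurons, were also more often called lower than higher. Of 16 genes, 7 were called lower than in cluster 0 (notch1a, notch1b, notch3, dla, dlb, dld and her4.2) and 1 higher. Of all genes, 11.1% were called lower and 2.67% higher in that comparison. The receptor notch3 had 106 and 85.4 CPM in cluster 5 against 411 and 403 CPM in cluster 0, and the receptor notch1a 96.5 and 104 CPM against 233 and 239 CPM. The ligand dla had 67.4 and 55.6 CPM against 351 and 365 CPM. The one called higher was the ligand dlc, at 17.6 and 14.9 CPM with log2 ratios of 3.77 and 2.64. Against all other cells the same list showed 1 gene higher (dlc) and 2 lower (dlb and hey1) of 16, with medians of −0.03 and −0.49. Of all genes, 3.29% were called higher and 15.2% lower there, so the lower calls were close to that share.

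Neuronal genes were low. All 8 genes of a neuron list were called lower than in the other cells, with medians of −4.17 and −4.96 and summed levels of 100.6 and 102 CPM in cluster 5 against 1197 and 1180 CPM. The tubulin gene tubb5 was their most abundant member, at 75.7 and 72.2 CPM against 588 and 427 CPM. Of 7 retinal neurogenesis genes with 50 UMIs, 5 were called lower and none higher. Of all genes, 15.2% were called lower and 3.29% higher in this comparison. The other cells include the neuron-like cluster 4, where the retinal neurogenesis list summed to 2261 and 2197 CPM. Against cluster 0, all 4 neuron genes tested were called lower. Of 5 retinal neurogenesis genes, 2 (neurog1 and insm1a) were lower there and none higher, with medians of −2.18 and −0.18. Atoh7, the factor that starts retinal ganglion cell birth, had 2 UMIs in high and 0 in low cells of cluster 5, and 0 UMIs in the low library allow up to 3 counts of 1205777.

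Hox genes and most telencephalon genes were low as well, and against all other cells the other brain regions gave fewer calls. Of 17 hox genes, which mark hindbrain and trunk levels, 15 were called lower and none higher, with summed levels of 40.5 and 28.2 CPM in cluster 5 against 422 and 579 CPM in the other cells and 589 and 602 CPM in cluster 0. Of 8 telencephalon genes 5 were lower and none higher, of 11 hypothalamus genes 4 were lower and 1 (rx3, which is on both lists) higher, and of 7 midbrain and hindbrain genes 2 were lower. The shares over all genes in this comparison were 15.2% lower and 3.29% higher, and the smaller lists hold few genes to set beside them. The hypothalamus list summed to 66.4 and 53.1 CPM in cluster 5 against 80.0 and 126 CPM in the other cells, and the midbrain and hindbrain list to 144 and 65.5 CPM against 165 and 249 CPM. In cluster 0 these lists summed to 153 and 168 CPM and to 543 and 549 CPM. Against cluster 0, 6 of 8 hypothalamus and 4 of 7 midbrain and hindbrain genes were called lower, and only rx3 higher. So were 3 of 4 telencephalon and all 16 hox genes called lower there. Of all genes, 11.1% were called lower and 2.67% higher in that comparison. A few members carried midbrain and hindbrain genes. The boundary factor en2b had 42 UMIs in 5 high cells and 19 UMIs in 4 low cells, and 6 high and 1 low cells held at least 5 UMIs of en1b, en2a, en2b, pax2a and her5 together. The 6 high cells also held 19 UMIs of rx1 and 30 of six3b, and none of the 7 was among the barcodes with the highest doublet scores.

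Markers of neural crest, muscle and epidermis were low against all other cells, which include the cells of those types. Of 9 neural crest genes 8 were lower and none higher, with 38.4 and 25.7 CPM summed in cluster 5 against 1171 and 754 CPM. All 8 muscle genes were lower, with 23.9 and 50.6 CPM against 1270 and 1612 CPM, and 7 of 8 epidermis genes, with 162 and 124 CPM against 1702 and 2313 CPM. Of 10 lens genes only 2 reached 50 UMIs, neither was called, and cryaa, crygn2 and mipa had no UMI in cluster 5. Cluster 0 was low in these types too. It had 60.6 and 44.7 CPM of the neural crest, 41.7 and 63.6 CPM of the muscle and 238 and 323 CPM of the epidermis list. Against it, 1 of 5 neural crest genes was called lower, and none of 3 muscle and 6 epidermis genes was called. Mitfa had 11 UMIs in high and 10 in low cells of cluster 5, 11.4 and 8.29 CPM against 500 and 148 CPM in the other cells, and a UMI of it was seen in 6.29% and 2.69% of members. The share was 2.61% and 0.500% in cluster 0, 2.03% and 0.508% in cluster 4, 11.6% and 3.57% in the deeper cluster 8, and 100% and 95.5% in the melanophore-like cluster 6. Of the mitfa UMIs of cluster 5, 3 of 11 high and 7 of 10 low ones lay in the few cells with melanin genes described below. What the GFP gate read in cluster 5 was not tested.

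**Figure D2:**
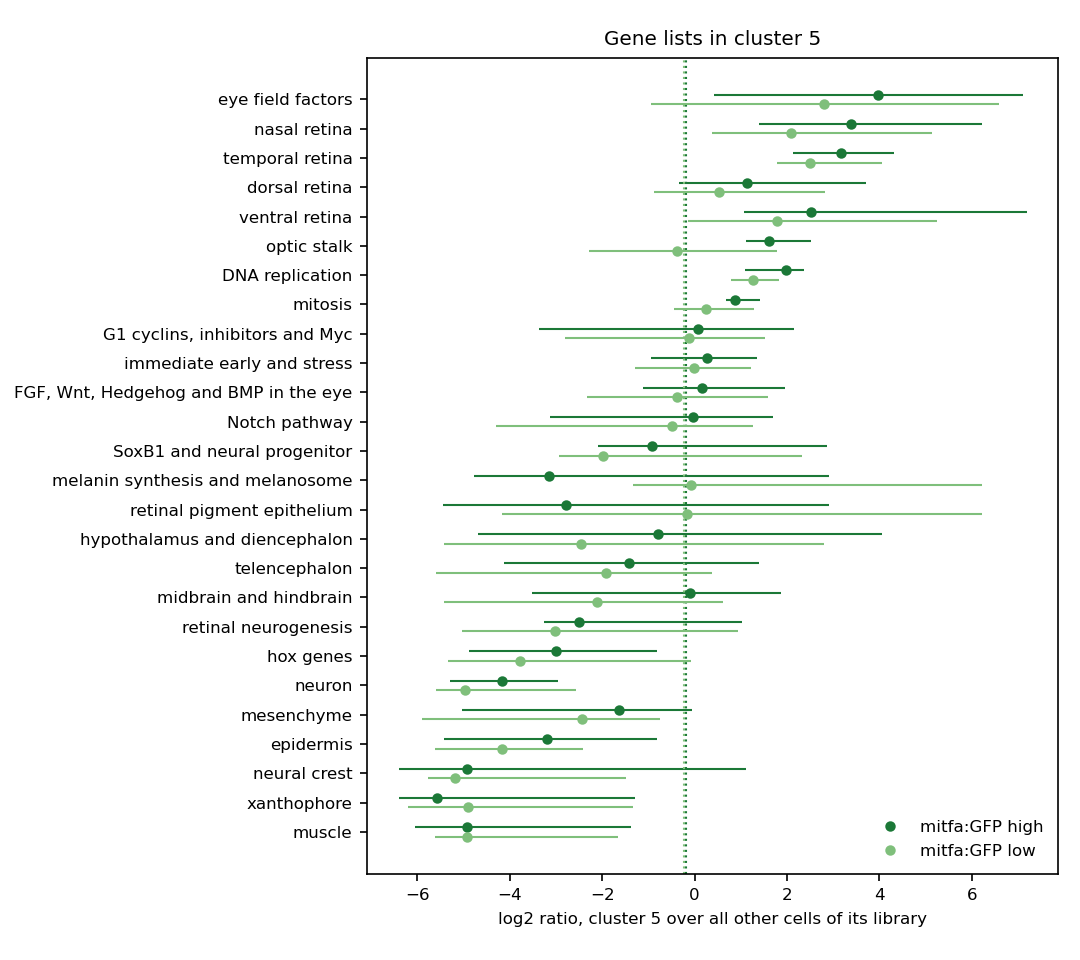
Median (point) and range (line) of the log2 ratio of cluster 5 over all other cells for the genes of each list, in the mitfa:GFP high (dark, above) and low (light, below) library, with dotted lines at the median of all genes (−0.19 high, −0.23 low). The eye field list (medians 3.97 and 2.81) and the retina pattern and DNA replication lists lie to the right, and the neuron, neural crest, xanthophore and muscle lists to the left.

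Cluster 5 was rich in transcripts of DNA replication. Of 16 replication genes, 15 were called higher than in the other cells and none lower, with medians of 1.97 in the high and 1.27 in the low library and summed levels of 4108 and 3996 CPM in cluster 5 against 1056 and 1602 CPM. Pcna, the sliding clamp of the replication fork, had 1610 and 1558 CPM against 360 and 578 CPM, and the helicase subunit mcm2 263 and 298 CPM against 66.7 and 110 CPM. Cluster 0 was itself cycling, with 1046 and 1004 CPM of pcna. Against it none of the 16 was called, and the medians were 0.55 and 0.64. Mitosis genes were nearer the rest. Of 14, only bub1 was called higher, the medians were 0.88 and 0.24, and against cluster 0 they were −0.31 and −0.54.

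To compare cells at equal depth, each was thinned to 1001 UMIs, which left out 19 high and 16 low cells of cluster 5. At least 2 replication UMIs were then seen in 75.7% of high cells (interval 67.8 to 82.6%, 106 of 140) and in 74.1% of low cells (66.9 to 80.5%, 126 of 170). In cluster 0 the shares were 60.2% (56.6 to 63.7%) and 56.4% (53.2 to 59.6%), and in the other cells as a whole 29.0% and 38.2%. Without thinning, 92.5% and 91.9% of cluster 5 cells passed, against 87.4% and 86.2% of cluster 0. At equal depth cluster 5 thus had the highest share of cells with replication transcripts among the deposited clusters of each library. At least 2 mitosis UMIs were seen in 35.0% (27.1 to 43.5%) and 34.7% (27.6 to 42.4%) of cluster 5 cells and in 36.5% and 37.9% of cluster 0 cells. That difference lay within the counting intervals.

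**Figure D3:**
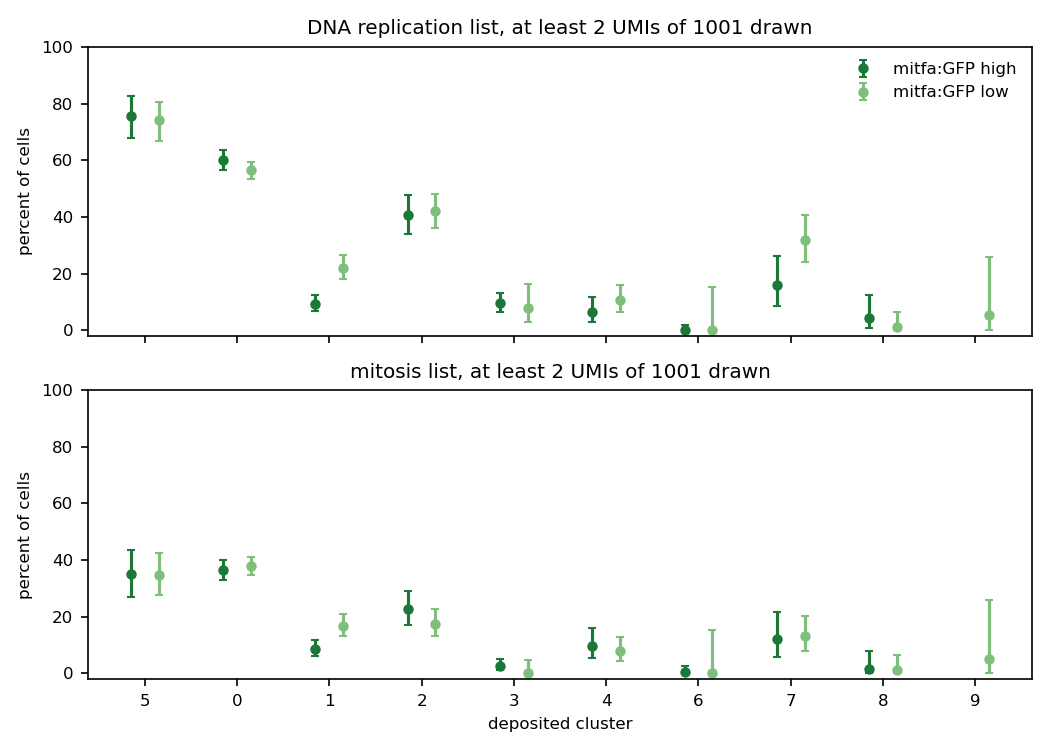
Percent of cells with at least 2 UMIs of the DNA replication list (top) and the mitosis list (bottom) after thinning to 1001 UMIs, by deposited cluster with cluster 5 first, in the mitfa:GFP high (dark) and low (light) library, with exact binomial intervals. Replication shares reach 75.7% and 74.1% in cluster 5 and 60.2% and 56.4% in cluster 0, and mitosis shares of both clusters overlap.

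Of 11 G1 cyclins, inhibitors and Myc genes, ccnd1, ccne2 and mych were called higher and cdkn1ca lower. Ccnd1 (cyclin D1), which carries cells into S phase, had 734 and 787 CPM in cluster 5 against 216 and 344 CPM in the other cells. Cdkn1ca, an inhibitor of cyclin-dependent kinases, had 34.2 and 31.5 CPM against 353 and 221 CPM. Against cluster 0 none of the 11 was called higher and 2 were called lower, cdkn1ca among them. Of 28 genes of the FGF, Wnt, Hedgehog and BMP pathways, 4 were called higher and 1 (id3) lower. Among them were the FGF-induced factor etv5a, at 148 and 207 CPM against 63.7 and 73.2 CPM, the Wnt inhibitor sfrp1a, at 28.0 and 38.1 CPM against 8.08 and 12.8 CPM, and the ligand bmp2b, at 23.9 and 24.9 CPM against 8.08 and 11.6 CPM. Against cluster 0, 3 of 24 genes of these pathways were called higher, etv5a and bmp2b but not sfrp1a among them, and 4 lower. The shares over all genes were 3.29% higher and 15.2% lower against the other cells. Against cluster 0 they were 2.67% and 11.1%. Of 12 immediate early and stress genes, which dissociation is known to induce, only atf3 was called, at 1044 and 1553 CPM in cluster 5 against 408 and 667 CPM. No gene of that list was called against cluster 0.

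Genes of all 4 domains of the optic cup were seen in cluster 5. On the nasal list, hmx1 and hmx4, homeobox factors of the nasal side, and the guidance ligand efna5a were called higher of 4. Hmx4 had 89.2 and 68.0 CPM in cluster 5 against 3.38 and 7.93 CPM in the other cells, and hmx1 27.0 and 28.2 CPM against 0.36 and 0.81 CPM. On the temporal list all 3 genes were called higher. They were foxd1, the forkhead factor of the temporal side, at 56.0 and 88.7 CPM against 2.83 and 5.36 CPM, and the ephrin receptors epha3 and epha4b. Of 7 dorsal genes 3 were called higher, the T-box factors tbx2b (182 and 158 CPM against 13.8 and 22.2 CPM) and tbx2a (130 and 92.1 CPM against 47.7 and 14.6 CPM) and aldh1a2, which makes retinoic acid (69.5 and 60.5 CPM against 13.4 and 18.3 CPM). Of 3 ventral genes 2 were called higher, aldh1a3, the ventral retinoic acid enzyme (35.3 and 22.4 CPM against 0.24 and 0.59 CPM), and vax1 (15.6 and 18.2 CPM against 2.71 and 5.29 CPM). Against cluster 0, 3 of 4 nasal, 1 of 2 temporal (foxd1), 4 of 6 dorsal and 1 of 3 ventral genes (aldh1a3) were called higher. The neuron-like cluster 4 held some of these genes too. The nasal list summed to 201.2 and 182 CPM in cluster 5 against 227 and 247 CPM in cluster 4, and the ventral list to 91.3 and 69.7 CPM against 68.4 and 90.0 CPM.

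Nasal and temporal factors met in few cells, and in each library the product of the single shares lay inside the counting interval. A UMI of hmx4 was seen in 32 high cells and of foxd1 in 27, and both in 3 (1.89%, interval 0.391 to 5.41%), where the product of the shares gives 5.43 cells (3.42%). In the low library they were seen in 36 and 35 cells and both in 3 (1.61%, 0.334 to 4.64%), where the product gives 6.77 (3.64%). Hmx1 and foxd1 were seen together in 0 of 159 high and 0 of 186 low cells, with products of 2.72 and 3.20 (1.71% and 1.72%), inside the intervals, which reach 2.29% and 1.96%. By whole lists, nasal and temporal genes met in 16 high and 20 low cells, with products of 16.9 and 22.6. Genes of one side met in more cells than the product. Hmx4 and hmx1 shared 10 high and 11 low cells, with products of 3.22 and 3.29, and tbx2b and tbx2a shared 43 and 47 cells, with products of 21.2 and 24.2. Tbx2b and aldh1a3, from opposite ends of the other axis, shared 5 and 2 cells, with products of 4.74 and 5.73. Joint counts also move with depth, since deep cells hold more UMIs of every gene. The product takes no account of this, so it cannot show whether 2 factors avoid each other. At 1001 UMIs per cell, genes of the nasal and temporal lists met in 0.714% of high and 0.588% of low cells (products 1.02% and 1.27%), and dorsal and ventral genes in 2.86% and 1.18% (products 2.69% and 1.62%).

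Cells with a nasal and cells with a temporal factor differed in some genes that the split did not use, and not clearly in others. The split set 35 high and 39 low cells with hmx1 or hmx4 and no foxd1 against 24 and 32 cells with foxd1 and no hmx gene, at median depths of 8076 and 7701 UMIs in hmx cells and 7890.5 and 8087.5 UMIs in foxd1 cells. The genes named here were picked after their values were seen. Foxg1a, a forkhead factor of the nasal retina and telencephalon, had 93.6 and 105 CPM in hmx cells and no UMI in foxd1 cells. Against a floor of 3 UMIs per library that was at least 2.72 and 3.30 higher on the log2 scale. Pcna had 2067 and 2024 CPM in hmx cells against 1406 and 1255 CPM in foxd1 cells, log2 ratios of 0.56 (interval 0.35 to 0.76) and 0.69 (0.50 to 0.88). Cx43 ran the other way, with 171 and 259 CPM in hmx cells against 478 and 695 CPM in foxd1 cells, and so did fabp11a, with 549 and 792 CPM against 1155 and 1422 CPM. Rx1 was on both sides, at 371 and 345 CPM against 331 and 289 CPM, and the intervals of its ratios held 0. Other genes of the nasal and temporal lists followed the split less clearly. Efna5a was higher in high hmx cells (3.03, 1.02 to 6.16), but its low interval held 0 (0.73, −0.31 to 1.82). Epha4b had ratios of −0.72 (−2.30 to 0.82) and −1.16 (−3.06 to 0.52), and both intervals held 0. Leaving out the pigmented cells described below, 1 high and 2 low foxd1 cells and 2 low hmx cells, kept these directions and moved the fabp11a ratio of the low library to −1.40 in place of −0.85.

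Along the other axis, 62 high and 84 low cells with tbx2b or tbx2a and no aldh1a3, vax1 or vax2 were set against 10 and 16 cells with aldh1a3, vax1 or vax2 and no tbx2 gene. Fabp7a had 1833 and 1573 CPM in tbx2 cells against 139 and 353 CPM in aldh1a3 or vax cells, log2 ratios of 3.72 (2.67 to 5.04) and 2.16 (1.69 to 2.66). Fabp11a, another member of the family, ran the opposite way, with 500 and 486 CPM against 3061 and 2405 CPM, log2 ratios of −2.61 (−2.90 to −2.32) and −2.31 (−2.55 to −2.07). Cyp27c1, an enzyme that converts vitamin A1 to A2 in fish, had 31.3 and 36.1 CPM in tbx2 cells against 417 and 176 CPM. Pcna had 1842 and 1738 CPM against 616 and 966 CPM. The dorsal gene aldh1a2 did not follow the split in the high library, with a ratio of −0.02 (−1.69 to 2.33). In the low library its ratio was 3.07 (0.53 to 8.40). These ratios rest on 3 high and 1 low UMIs in the aldh1a3 or vax cells. Without the pigmented cells, 1 in each group and library, fabp11a had 469 and 382 CPM in tbx2 cells against 2149 and 1983 CPM. Its ratios were then −2.20 and −2.38. The high ratio thus moved out of its first interval, which does not cover spread among cells. The ventral groups were small, and the high one was shallower, at a median of 4759.5 UMIs against 7599.5 in tbx2 cells. The 2 splits also share cells, since tbx2b and hmx4 met in 23 high and 27 low cells, with products of 11.7 and 15.9.

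**Figure D4:**
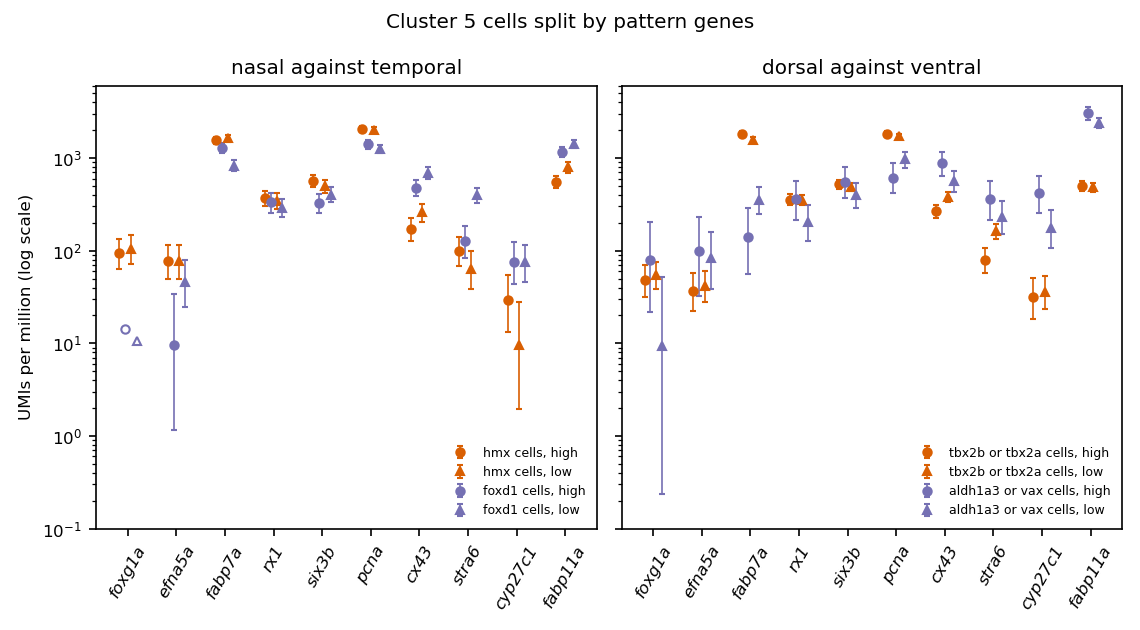
CPM (log axis) of 10 genes in cluster 5 cells with hmx1 or hmx4 and without foxd1 against cells with foxd1 and without hmx genes (left), and in cells with tbx2b or tbx2a against cells with aldh1a3, vax1 or vax2 (right), circles for the mitfa:GFP high and triangles for the low library, bars exact Poisson intervals, open symbols 0 UMIs drawn at the floor of 3 UMIs. Foxg1a is higher and cx43 lower in hmx cells, and fabp11a is lower in tbx2 cells (500 and 486 CPM against 3061 and 2405 CPM).

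A few cells of cluster 5, called pigmented here, held many transcripts of melanin genes. Counting the 10 genes of a melanin synthesis and melanosome list, 149 of 159 high and 176 of 186 low cells had under 3 UMIs, 3 and 2 cells had 3 to 9, and 7 and 8 cells had 10 or more. The 7 high cells held 152, 55, 38, 22, 21, 16 and 16 melanin UMIs and the 8 low cells 143, 120, 109, 99, 32, 28, 23 and 11. The limit of 10 was set after these values were seen, and the cells past it are a range and not a cell type, with 9 and 8 UMIs in the nearest high cells below it and 4 in the nearest low cell. At 1001 UMIs, at least 2 melanin UMIs were seen in 5.71% of high (2.50 to 10.9%) and 4.71% of low cells of cluster 5, and in 0.398% and 0% of cluster 0 cells (unthinned 6.92% and 6.45% of cluster 5). The shares were 34.8% and 6.13% in cluster 1, 12.4% and 3.90% in cluster 3, and 4.00% (0.833 to 11.2%) and 0.781% in cluster 7. They were 0% and 0% in cluster 2, 0.699% and 0% in cluster 4, and 1.49% and 0% in cluster 8. In cluster 1, 177 high and 28 low cells held 10 or more melanin UMIs. High cluster 0 had 2 such cells, with up to 132, and low cluster 7 had 1, with 63.

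Dct, pmela, pmelb and mlpha are on the melanin list that split the cells, so their values in pigmented against unpigmented members restate the split. Dct, which acts on the melanin precursor dopachrome, had 2863 and 2942 CPM in these pigmented cells, against 6.63 and 1.76 CPM in members with under 3 melanin UMIs and 4478 and 3832 CPM in cluster 6. The melanosome scaffold gene pmela had 1686 and 2886 CPM, against 12.2 and 5.28 CPM in the unpigmented members. Mitfa, by contrast, had 3 UMIs in the 7 high and 7 UMIs in the 8 low pigmented cells, 80.3 and 129.5 CPM, against 1567 and 1699 CPM in cluster 6. Sox10, the neural crest factor upstream of mitfa, had 1 and 0 UMIs, against 770 and 911 CPM in cluster 6, and mlpha, a melanosome transport gene, 0 and 0 UMIs, against 195 and 190 CPM.

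Pmelb, a second pmel gene, had 883 and 1203 CPM in the pigmented cells, against 10.7 and 8.43 CPM in cluster 6. At least 3 pmelb UMIs were held by 3 high and 4 low cells of cluster 5, by 1 high cell each of clusters 1 and 3, and by no other cell. Some genes outside the melanin list, picked after their values were seen, were also found there. Rlbp1a, which binds retinaldehyde in pigment epithelium and Müller glia, had 161 and 111 CPM and no UMI in unpigmented members or cluster 6, and the collagen gene col9a2 had 321 and 185 CPM and no UMI in cluster 6. Otx2b, a homeobox factor of pigment epithelium, had 134 and 37.0 CPM from 5 and 2 UMIs. The pigmented cells held 37369 high and 54054 low UMIs in all, so the values of rlbp1a and col9a2 also rest on few UMIs. A retinal pigment epithelium list, which shares most melanin genes, had 1 of 15 genes higher (pmelb) and 4 lower (mitfa, tfec, tyr and gpr143) in cluster 5 than in the other cells. Against cluster 0, 8 of its 12 genes were higher and otx1, otx2a and otx2b were lower. Of all genes, 2.67% were higher and 11.1% lower in that comparison. The pigmented cells held 375 of the 500 high and 633 of the 694 low UMIs of this list. In unpigmented members it summed to 92.9 and 43.1 CPM, against 200.5 and 133 CPM in cluster 0.

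The pigmented cells held more fabp11a and cx43 than the unpigmented members. Fabp11a had 9767 and 8418 CPM in them, against 607 and 619 CPM in unpigmented members and 151 and 63.2 CPM in cluster 6. Cx43 had 2275 and 2405 CPM, against 251 and 353 CPM in unpigmented members and 0.463 and 4.22 CPM in cluster 6. With 3.88% and 4.48% of the UMIs of cluster 5, these 15 cells held 34.4% and 38.0% of its fabp11a. Without them the ratio of fabp11a to the other cells was 3.09 and 3.03 in place of 3.64 and 3.65, and that of cx43 5.25 and 5.22 in place of 5.58 and 5.53.

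Eye field and replication genes were lower in the same cells. The eye field list summed to 535 and 388.5 CPM in pigmented against 2111 and 1950 CPM in unpigmented members, and the replication list to 1338 and 721.5 CPM against 4266 and 4182 CPM. Other lists differed between the libraries, with the dorsal retina list at 642 and 148 CPM against 560 and 488 CPM and the Notch list at 1632 and 795.5 CPM against 935 and 890 CPM. These sums of the pigmented cells rest on few UMIs. The eye field list had 20 and 21, the replication list 50 and 39, the dorsal list 24 and 8 and the Notch list 61 and 43. Sox2, fabp7a, pcna and mki67 were picked after their values were seen. Sox2, a factor of neural progenitors, had no UMI in any of the 15, against 252 and 209 CPM in unpigmented members. Fabp7a had 134 and 74.0 CPM against 1403 and 1223 CPM, pcna 508 and 314.5 CPM against 1675 and 1620 CPM, and the proliferation marker mki67 161 and 166.5 CPM against 688 and 612 CPM. Of the pigmented cells, 3 of 7 and 4 of 8 were among the barcodes with the highest doublet scores, against 1 of 149 and 4 of 176 unpigmented members. Their median depths were 6165 and 6063.5 UMIs, against 5527 and 6389 UMIs. Without the 5% of barcodes with the highest scores, the melanin list had 0 genes higher and 5 lower in cluster 5 than in the other cells, in place of 1 and 1. Its medians were then −4.15 and −1.04 in place of −3.15 and −0.07, and at 1001 UMIs 3.68% and 2.47% of members held at least 2 melanin UMIs in place of 5.71% and 4.71%. The part of doublets in the other genes of the pigmented cells was not tested.

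**Figure D5:**
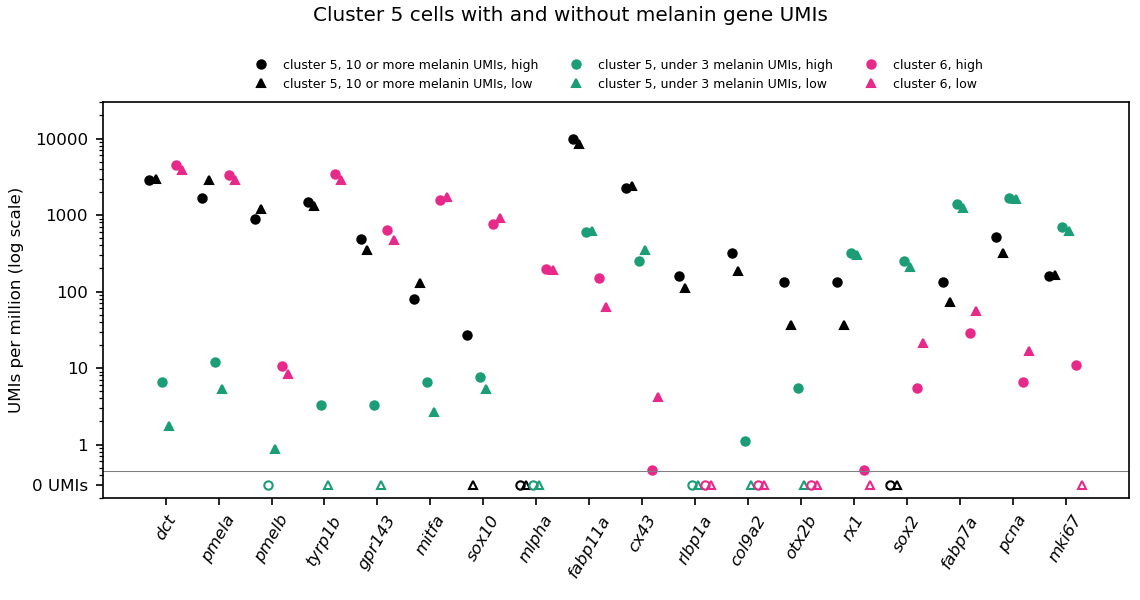
CPM (log axis, 0 UMIs as open symbols at the bottom) of 18 genes in the 7 high and 8 low cells of cluster 5 with 10 or more melanin UMIs (black), in cluster 5 cells with under 3 (green) and in the melanophore-like cluster 6 (pink), circles for the mitfa:GFP high and triangles for the low library. Black and pink lie together for dct and pmela and apart for mitfa, sox10, pmelb, fabp11a and cx43, and sox2 has no UMI in the black cells.

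The genes that varied most among members included several of those above. After thinning, the median Fano factor (variance over mean of UMIs per cell) of 1224 genes was 1.05 in each library. Fabp11a had 6.77 in the high and 4.91 in the low library, dct 5.15 and 3.95, id1, a BMP target, 4.68 and 4.44, and atf3 3.61 and 4.70. The S phase histone genes named hist1h4l had 3.95 and 3.40 and, for another copy, 3.42 and 2.66, and the immediate early gene fosab 3.01 and 4.41. Reads of near-identical histone copies could be split between IDs. Cirbpa and 2 genes with clone names only completed the 10, at between 2.48 and 3.42. Of the 4 markers fabp11a thus varied most, with rx1 at 1.33 and 1.35, six3b at 1.41 and 1.22 and pax6b at 1.22 and 1.25.

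Members from the high and the low library were alike in nearly all genes. Of 2258 genes with at least 100 UMIs in cluster 5, 3 (0.133%) were at least 2-fold higher and 5 (0.221%) at least 2-fold lower in high than in low cells, and the median log2 ratio was 0.00. For the eye field list the median of 8 genes was 0.13 (range of the genes −0.12 to 1.03), for DNA replication 0.03 over 13 genes and for mitosis 0.17 over 9.

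Gch2, the pteridine synthesis enzyme of yellow pigment cells, had 99.6 CPM in high and 17.4 CPM in low cells of cluster 5, a log2 ratio of 2.52 (1.82 to 3.27). The ratio was 2.35 in the other cells and 2.69 in cluster 0, and gch2 reached 26174 and 20303 CPM in the xanthophore-like cluster 3, which held 13.6% of the high and 3.30% of the low library. The ratios in the other cells and in cluster 0 were thus close to that of cluster 5, while the levels in cluster 3 lay nearer together. Rpl26, a ribosomal protein gene, had 72.6 CPM in high and 1076 CPM in low cells, a ratio of −3.89 (−4.26 to −3.54), and −4.02 in the other cells, so the difference was as large outside cluster 5. Hist1h4l (ENSDARG00000111247) had 98.5 against 43.1 CPM, a ratio of 1.19 (0.69 to 1.71), and −0.36 in the other cells. Mab21l2 had 91.3 against 44.8 CPM, a ratio of 1.03 (0.52 to 1.54), against −0.37 in the other cells. Mab21l2 was the 1 eye field gene called between the libraries.

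Of the genes lower in high cells, ARF5, a small GTPase of vesicle traffic, had 120 against 371 CPM, a ratio of −1.62 (−1.93 to −1.33), and −0.07 in the other cells, with up to 41 UMIs in a single low cell. Icn had 13.5 against 98.7 CPM, but 108 of its 119 low UMIs came from 1 cell, and without it the ratio was 0.55 in place of −2.87. That cell held 10 UMIs of the epidermis list, 2 of rx1 and 4 of six3b. Hsp90aa1.2, a chaperone gene, had 49.8 against 104 CPM (−1.06), with 15 and 32 UMIs in single cells. The next genes in order, emc6, oga, rnf19a, nup37 and krt18a.1 above and fosb, junbb and pom121 below, lay between 0.83 and 0.98 and between −0.93 and −0.95, inside the 2-fold limit.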

How the data were processed

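Single-cell RNA was measured in 1 mitfa:GFP high and 1 mitfa:GFP low library. The authors made the deposited counts (UMIs per gene and cell, 25107 genes) with Cell Ranger 6.1.2 on GRCz11, and the clusters, other cell labels and mitochondrial percent in the deposited cell table with Seurat. The authors' scores and phases were not used. Counts came from each library's own matrix and clusters from the table.

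UMIs were summed per library and cluster, scaled to CPM and compared as log2 ratios, with exact Poisson, conditional or Clopper-Pearson intervals (95%). Where a side had 0 UMIs, 3 were used in its place. A call was a 2-fold ratio among genes with at least 50 UMIs (in both libraries against other cells) or 100 UMIs in cluster 5 (high against low). Genes were named from the lists with at least 20 UMIs in cluster 5, and from the 10 highest and 5 lowest ratios, 8 each way between libraries and 10 highest Fano factors with at least 200 UMIs (100 between libraries). Low list genes, pattern pairs and splits, and the genes of pigmented cells were also named after their values were seen. Some genes that these rules name are not reported here. The members and lists were chosen with earlier results of these data known. Shares used 20 thinning draws to 1001 UMIs, the 10th percentile of cluster 5 cells. The 305 of 306 list genes found follow the files' symbols, and 199 of 309 IDs had the same symbol in the name table.

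Doublets were not removed. Scrublet (scanpy 1.11.5) marked 11 of 5276 barcodes automatically, too few to be usable, so the top 5% by score (264) were left out as an alternative. Other alternatives were TMM (edgeR 4.0.16, R 4.3.3), median of ratios, totals without 107 mitochondrial and ribosomal genes, the aggregated matrix, equal weight per cell, other minimums and depths, and, chosen after seeing the data, leaving out pigmented cells or the cell rich in icn. On simulated data for high against low in cluster 5 (2258 genes, 200 changed), 200 signs were right and 95.1% of intervals held the true value. The simulated counts were Poisson, the model that the intervals assume. The check thus covers the calculation only, and not the uneven spread of UMIs among cells. Scripts ran in Python 3.11.15 with scipy 1.17.1, numpy 2.4.6 and pandas 2.3.3.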

Additional observations from a re-analysis of the deposited data

Results flagged for a closer look

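Some genes stood on opposite sides of the other cells in the 2 libraries, and none of these differences was tested. Dct was lower in cluster 5 than in the other cells of the high library (log2 ratio −2.53) and higher in the low library (0.63). Pmela showed −2.78 and 0.84, and tyrp1a −2.26 and 1.11. All 3 are on the melanin list, and the few pigmented cells held 320 of its 367 high and 565 of its 583 low UMIs in cluster 5. In unpigmented members the list summed to 27.6 and 9.68 CPM, against 2524 and 324 CPM in the other cells. The higher low-library ratios thus do not describe most members. The melanophore-like cluster 6 made up 197 of the 2374 high and 22 of the 2361 low cells, and these are among the other cells. Jun stood at 0.60 in the high and −0.31 in the low library, and id1 at 0.074 and −0.54.

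Retina genes also appeared in barcodes that the cell table leaves out. At least 2 UMIs of rx1 and rx2 together were seen in 1 of 231 left-out high barcodes and in 7 of 310 left-out low barcodes (2.26%, interval 0.913 to 4.60%), where a count of 0 allows up to 0.968%. In the table the shares were 44.7% of high and 48.4% of low cells of cluster 5 and 0.316% and 0.414% of the other cells.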

How the results depend on the processing

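Of 321 values recomputed for 51 results under 14 other settings, 262 stayed within the limits set for a change. No paired analysis was possible because each GFP fraction has 1 library, and for the same reason no replicate could be left out. Other scalings moved the median of all genes by at most 0.08 (log2). The median melanin ratio of the high library changed sign, to 2.33, with cluster 0 as the comparison, where melanin genes summed to 75.6 CPM. That comparison gave 222 genes higher and 922 lower and eye field medians of 2.45 and 1.84. With equal weight per cell the eye field median of the high library was 3.12, and 11 genes were higher and 16 lower in high than in low cells of cluster 5. In the aggregated matrix 10 were lower. A minimum of 50 UMIs (3733 genes) gave 25 higher and 19 lower, and one of more than 3 UMIs (10517 genes) 743 and 714, so the counts between libraries rest on the minimum. Without thinning, 92.5% of high and 91.9% of low cells had replication UMIs and 73.0% and 74.7% mitosis UMIs, nasal and temporal genes met in 10.1% and 10.8%, and dorsal and ventral genes in 18.9% and 13.4%. Asking for 1 more UMI gave 62.1% and 58.8%, 17.1% and 18.8%, and 0% for each pair in both libraries. Apart from these, the cause of a change was not tested. In each library 36 members had no UMI of the 4 markers, and 30 high and 35 low ones of these were under 3000 UMIs. Whether depth was the reason was not tested.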
